A study of Mus musculus with 6 samples.

Results

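The genes described here encode the machinery that shortens the poly(A) tail of an mRNA, removes its cap and degrades the body. The set held 41 named members, and a member was measured where a probe set of the array carried its symbol and no other; of several probe sets the brightest over the 6 arrays was kept. This gave 40 members out of 19938 genes measured in all. Pabpc4 had no probe set of its own, since its 4 probe sets were shared with the symbol Gm12620. Both groups consisted of mouse embryonic stem cells with Dicer Fx/Fx alleles, in which Dicer can be deleted, and each group had 3 arrays. The untreated group carries no tamoxifen label. The tamoxifen group received tamoxifen for 3 days and was collected 2 days later, on day 5. No collection day was given for the untreated cells, and the labels do not say which recombinase acted, what drove it, which exons are flanked, or whether the cells were 1 clone. Wild-type E14 cells given tamoxifen are mentioned in the protocol and were not analysed here, so tamoxifen and the deletion cannot be told apart in any value below. Whether the replicates grew as separate cultures is not recorded. The p-values therefore reflect how far these arrays varied among themselves, and that variation may be technical.

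An mRNA usually begins its decay when deadenylases remove the poly(A) tail. The PAN2-PAN3 pair and the larger CCR4-NOT complex do this work, and the GW182 proteins that bind Argonaute recruit both of them to mRNAs targeted by microRNAs. Tail loss lets the LSM1-7 ring and PATL1 settle on the shortened end, which favours removal of the cap by DCP2. The exonuclease XRN1 then degrades the body from the front, while the exosome and DIS3L2 degrade from the tail end. Dicer makes the microRNAs that feed targets into this route. The comparison asks which genes of the route differ between tamoxifen-treated and untreated Dicer Fx/Fx cells.

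Across the 40 measured members, 2 rose and 3 fell after tamoxifen, and 35 were not called. A gene was called at a limma adjusted p (Benjamini-Hochberg, over all 19938 genes) under 0.05. The 2 rises were Cnot6 and Cnot6l, the closely related nuclease subunits of the CCR4 type, and the 3 falls were Lsm2, Lsm7 and the nonsense-mediated decay helicase gene Upf1. Of all genes tested 7.78% were called, 3.79% higher and 3.99% lower, so the members' overall share of 12.5% rested on 5 genes. The median change of the members was -0.08 on the log2 scale, against 0.01 over all genes, and 28 of the 40 had a change below 0, against 46.8% of all genes. In cells measured in bulk, fewer cells with a transcript and less of it per cell cannot be told apart. Apart from Cnot6 and Cnot6l, the log2 changes of the measured members lay between -0.31 and 0.25. With the replicate number as a block 3 members were higher and 6 lower, 17.4% of all genes being called in that fit. The array carries no detection call; the members' log2 values lay between 6.87 and 13.7, on arrays with medians of 7.19 to 7.26.

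The sequences just upstream of the start of the called members are given here, because Cnot6 and Cnot6l moved together in one direction and Lsm2, Lsm7 and Upf1 in the other. Each run is the 150 bases before the most upstream RefSeq start, 5′ to 3′ on the gene's strand, on build GRCm38.p6. Capitals mark matches, on either strand, to the CCAAT box (CCAAT), the GC box (GGGCGG), the TATA box (TATAAA), an ETS site (CCGGAAG) or an E-box (CACGTG); neighbouring GC boxes can overlap. The regions are chr11:49712723-49712872 (minus strand) for Cnot6, chr5:96161991-96162140 (minus) for Cnot6l, chr17:34981704-34981853 (plus) for Lsm2, chr10:80855210-80855359 (minus) for Lsm7 and chr8:70353280-70353429 (minus) for Upf1.
Cnot6: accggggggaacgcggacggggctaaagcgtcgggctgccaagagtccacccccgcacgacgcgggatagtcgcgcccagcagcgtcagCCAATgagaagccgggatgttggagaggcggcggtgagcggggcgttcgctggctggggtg
Cnot6l: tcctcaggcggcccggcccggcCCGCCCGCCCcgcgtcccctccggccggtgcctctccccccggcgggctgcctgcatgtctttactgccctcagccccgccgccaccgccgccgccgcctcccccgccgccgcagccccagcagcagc
Lsm2: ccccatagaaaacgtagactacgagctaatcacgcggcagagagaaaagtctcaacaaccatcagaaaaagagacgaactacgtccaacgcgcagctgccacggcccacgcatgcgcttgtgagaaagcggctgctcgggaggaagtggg
Lsm7: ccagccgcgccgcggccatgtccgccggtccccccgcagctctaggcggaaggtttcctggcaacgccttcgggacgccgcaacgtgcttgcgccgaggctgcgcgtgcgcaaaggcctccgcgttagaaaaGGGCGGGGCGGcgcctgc
Upf1: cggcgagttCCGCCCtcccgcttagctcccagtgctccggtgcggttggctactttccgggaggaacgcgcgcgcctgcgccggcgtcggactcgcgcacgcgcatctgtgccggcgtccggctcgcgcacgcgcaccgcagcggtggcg
The windows of Cnot6 and Cnot6l shared none of the 5 searched motifs. That of Cnot6 held a CCAAT box, which 25.3% of 27025 gene windows of this length hold, and that of Cnot6l held 2 GC boxes that overlap; at least 1 GC box is in 29% of all windows. Lsm7 also held 2 overlapping GC boxes and Upf1 held 1, and the Lsm2 window held none of the searched motifs. Their GC content was 70.7% for Cnot6, 82.7% for Cnot6l, 55.3% for Lsm2, 73.3% for Lsm7 and 75.3% for Upf1, against a median of 54% over all windows. Of the 33 members found in the RefSeq table, 21 held a GC box, 7 a CCAAT box, 5 an ETS site and 3 a TATA box (Btg1, Tob1 and Zfp36l1), while 5.69% and 8.08% of all windows held the ETS site and the TATA box. An E-box was in 0 of the 33 and in 4.28% of all windows. A match is a description of these letters and was not tested as a binding site.

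The targeted gene and cell type markers were read first. Dicer1 read 11.43, 11.36 and 11.48 in the untreated arrays and 9.53, 9.48 and 9.69 in the tamoxifen arrays (log2), a change of -1.85 ± 0.07 (SE) with a limma adjusted p of 3.61e-05. The 10 embryonic stem cell markers had log2 values from 9.738 to 13.97, and 0 of 10 were called by limma, against 7.78% of all genes. Before adjustment p was under 0.05 with lower values for 4 of them, against 13.1% of all genes: Lin28a had -0.30, Utf1 -0.26, Tdgf1 -0.24 and Zfp42 -0.19, differences of the size seen below in the LSM ring. With the replicate number as a block the first 3 of these were lower, against 9.54% of all genes. Pou5f1, Sox2 and Nanog had -0.11, 0.06 and 0.07. Of 29 measured markers of fibroblasts, primitive endoderm and trophoblast, 0 were called by limma, against 7.78% of all genes. Before adjustment p was under 0.05 for 3 with higher values (Pdgfra 0.36, Tfap2c 0.27 and Cdx2 0.14) and 3 with lower values (Eomes -0.57, Ascl2 -0.52 and Thy1 -0.32). The shares of all genes were 11.5% higher and 13.1% lower. With the block 3 were higher, Pdgfra, Tfap2c and Acta2, and 4 were lower, Eomes, Ascl2, Thy1 and Krt7, against 7.87% and 9.54% of all genes. The summed log2 values of the 29 ran from 211 to 214 in untreated and from 212 to 213 in tamoxifen arrays, a sum in which these opposite differences cancel. The part of these marker differences in the results below was not tested.

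**Figure D1:**
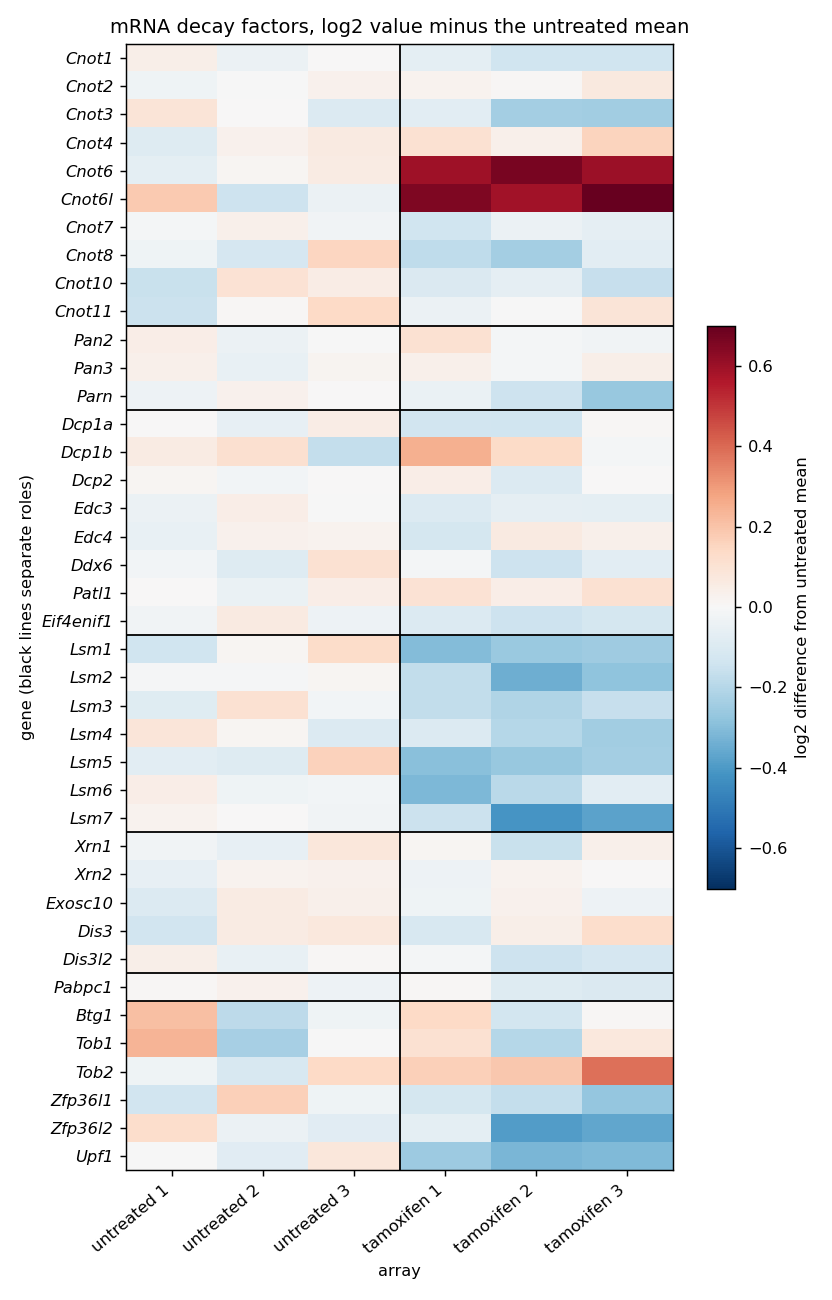
Log2 value of each of the 40 measured decay genes (rows, grouped by role) in each of the 6 arrays (columns), minus the gene's untreated mean, coloured from blue (lower) to red (higher). Cnot6 and Cnot6l stand out as red in all 3 tamoxifen arrays, and the 7 Lsm rows are blue in the same arrays.

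The CCR4-NOT complex is built on the scaffold CNOT1 and carries nucleases of 2 kinds, the CCR4 type (CNOT6 or CNOT6L) and the CAF1 type (CNOT7 or CNOT8). It had 2 rises and 0 falls among 10 measured genes, the other 8 not being called. The shares of all genes were 3.79% called higher and 3.99% called lower. Cnot6 read 10.52, 10.61 and 10.65 in untreated replicates 1, 2 and 3 and 11.19, 11.26 and 11.19 in the tamoxifen replicates (log2). All tamoxifen arrays lay above all untreated arrays, and the spread within either group was small beside the gap. Cnot6 rose 1.53-fold, from 10.59 ± 0.07 to 11.21 ± 0.04 (SD, n = 3), a log2 change of 0.62 ± 0.06 (SE) with a limma adjusted p of 0.00225. Cnot6l read 10.04, 9.71 and 9.82 untreated and 10.51, 10.45 and 10.56 after tamoxifen. Untreated replicate 1 was its highest untreated value, and the groups again did not overlap. Cnot6l rose 1.57-fold, from 9.86 ± 0.17 to 10.51 ± 0.06 (SD, n = 3), a log2 change of 0.65 ± 0.09 (SE) with a limma adjusted p of 0.00634.

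Both rises were past the threshold in all 6 fits that each left out 1 array, as were 1.57% of all genes. Among the 19938 genes Cnot6 ranked 43 by p and Cnot6l 154, and their rises ranked 154 and 135 by size. Within the replicate pairs numbered 1, 2 and 3 the change was 0.66, 0.65 and 0.54 for Cnot6 and 0.47, 0.73 and 0.74 for Cnot6l. Over the reported fit and 15 alternative settings the limma adjusted p ran from 0.000721 to 0.0195 for Cnot6. For Cnot6l it ran from 0.00113 to 0.0437. The highest values came from a separate limma fit over all 35556 probe sets of the array, adjusted across them. In that fit 1.37% of genes were called, 0.868% higher and 0.502% lower, and the 2 nuclease genes were the members called.

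The partner nucleases of the CAF1 type gave no such rise. Cnot7 read 10.96, 11.01 and 10.95 untreated and 10.83, 10.93 and 10.91 after tamoxifen, with no overlap, a change of -0.08 ± 0.06 (adjusted p = 0.45, limma) and a 95% confidence interval from -0.22 to 0.06. Cnot8 read 9.88, 9.80 and 10.06 untreated and 9.74, 9.68 and 9.84 after tamoxifen, a change of -0.16 ± 0.08 (adjusted p = 0.269, limma) with an interval from -0.35 to 0.03. The upper bounds of these intervals lay below the lower bounds of Cnot6 (0.48) and Cnot6l (0.45). These contrasts were chosen after the values were seen: per array, the change of Cnot6 exceeded that of Cnot7 by 0.70 ± 0.05 (SE), and the change of Cnot6l exceeded that of Cnot8 by 0.81 ± 0.12 (SE). In each of these contrasts all 3 tamoxifen arrays lay above all 3 untreated arrays. The exact two-sided permutation p was 0.1, the smallest that 3 against 3 arrays allow. Because the contrasts were picked from these same values, this p is not a test of them.

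The scaffold Cnot1 read 12.97, 12.89 and 12.94 untreated and 12.87, 12.80 and 12.80 after tamoxifen, a change of -0.11 ± 0.06 (adjusted p = 0.279, limma). The groups did not overlap. Its second probe set had -0.06. Cnot3, whose protein forms the NOT module with CNOT2, had -0.19 ± 0.08 (adjusted p = 0.171, limma), the largest difference among the 8 members not called. Cnot2 had 0.04 ± 0.06, the ubiquitin ligase gene Cnot4 had 0.10 ± 0.07, and Cnot10 and Cnot11, which pair with each other on the scaffold, had -0.11 ± 0.08 and 0.02 ± 0.08. With the replicate block the count for the complex was again 2 higher and 0 lower, against 7.87% and 9.54% of all genes.

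**Figure D2:**
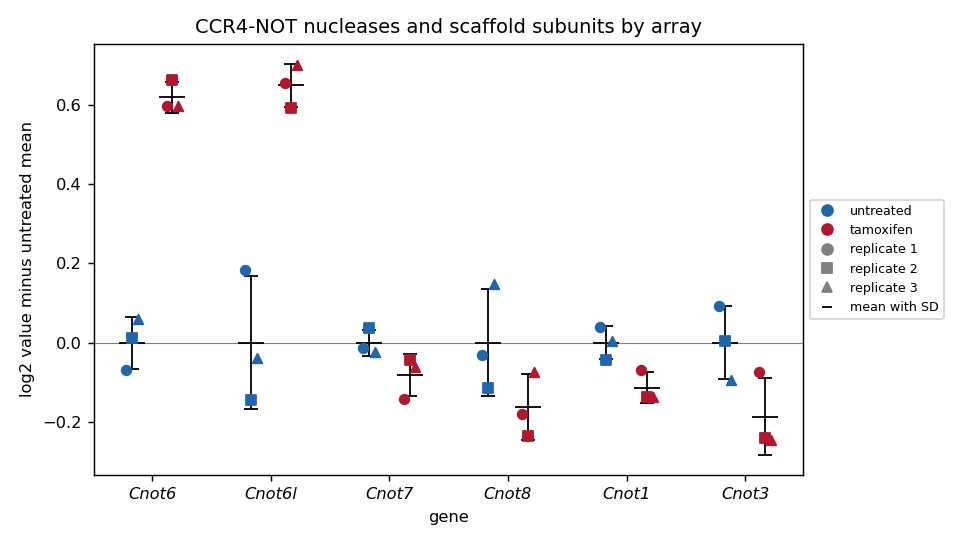
Log2 value minus the untreated mean for 4 nuclease genes of the CCR4-NOT complex and for Cnot1 and Cnot3, with 1 point per array, the symbol giving the replicate number, and bars giving the group mean with its SD (n = 3). Cnot6 and Cnot6l sit 0.62 and 0.65 above the untreated mean after tamoxifen, while Cnot7 and Cnot8 sit at -0.08 and -0.16.

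The other deadenylases gave 0 calls among 3 members in the limma fit, against 7.78% of all genes. At an unadjusted p under 0.05 there were 0, against 24.5% of all genes. PAN2 is the nuclease of the PAN2-PAN3 pair and PAN3 its adaptor; Pan2 changed by 0.02 ± 0.06 and Pan3 by 0.02 ± 0.06, with 95% confidence intervals from -0.12 to 0.17 and from -0.11 to 0.16. Parn, a poly(A)-specific ribonuclease that also trims small RNAs, read 10.61, 10.67 and 10.64 untreated and 10.59, 10.49 and 10.37 after tamoxifen. The groups did not overlap for Parn, but tamoxifen replicate 1 lay close to the untreated values, and the change of -0.15 ± 0.07 was not called (adjusted p = 0.222, limma). Groups that do not overlap were found in 14.8% of all genes with lower values after tamoxifen and in 14.5% with higher values.

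The decapping group held 8 members and 0 were called by limma, against 7.78% of all genes. At an unadjusted p under 0.05 there were 0, against 24.5% of all genes. Its changes ran from -0.12 to 0.12. Dcp2, the enzyme that removes the cap, read 10.17, 10.13 and 10.16 untreated and 10.20, 10.06 and 10.16 after tamoxifen, and the groups overlapped. Its change was -0.02 ± 0.06 with a 95% confidence interval from -0.16 to 0.13. The coactivator genes Dcp1a and Dcp1b had -0.09 ± 0.07 and 0.12 ± 0.09, and the enhancers of decapping Edc3 and Edc4 had -0.08 ± 0.06 and -0.01 ± 0.07. Ddx6, a helicase that links deadenylation to decapping and translational repression, read 12.87, 12.80 and 13.00 untreated and 12.88, 12.74 and 12.82 after tamoxifen, a change of -0.08 ± 0.07. Patl1, which bridges the LSM1-7 ring and the decapping enzyme, had 0.08 ± 0.06. Eif4enif1, which encodes the eIF4E-binding protein 4E-T, had the smallest p of the group. It read 10.26, 10.34 and 10.25 untreated and 10.19, 10.14 and 10.16 after tamoxifen, a change of -0.12 ± 0.06 (adjusted p = 0.25, limma); its second probe set changed by -0.01.

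The LSM1-7 ring, a ring of 7 small proteins that binds the shortened tail, had a change in 1 direction throughout. The 7 measured members gave 0 rises and 2 falls, against 3.79% and 3.99% of all genes, and 5 were not called. All 7 had a change below 0, against 46.8% of all genes. At an unadjusted p under 0.05 all 7 were lower, against 13.1% of all genes, and for 6 of the 7 each tamoxifen value was under each untreated value, against 14.8% of all genes. The changes ran from -0.31 to -0.18 with a median of -0.26, and the median was -0.18, -0.27 and -0.30 in replicate pairs 1, 2 and 3. LSM2 to LSM7 are also shared with the nuclear LSM2-8 ring of the U6 spliceosomal RNA, so only Lsm1 belongs to the decay ring alone.

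Lsm7 read 10.70, 10.68 and 10.65 untreated and 10.52, 10.26 and 10.30 after tamoxifen. It fell 1.24-fold, by 0.31 ± 0.08 (SE) on the log2 scale, with a limma adjusted p of 0.0458. The log2 change of its second probe set was -0.37. Lsm2 read 9.36, 9.35 and 9.38 untreated and 9.19, 9.02 and 9.08 after tamoxifen. It fell by 0.26 ± 0.07 on the log2 scale, with a limma adjusted p of 0.0438. For both genes tamoxifen replicate 1 was the tamoxifen array nearest to the untreated ones.

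Lsm1 read 8.85, 9.01 and 9.12 untreated and 8.69, 8.74 and 8.74 after tamoxifen, with no overlap. Its change was -0.27 ± 0.08 and was not called (adjusted p = 0.0686, limma), but passed with the replicate block (0.0232). Lsm5 read 8.72, 8.71 and 8.95 untreated and 8.50, 8.53 and 8.55 after tamoxifen, a change of -0.27 ± 0.08 that was not called (adjusted p = 0.0745, limma) and passed with the block (0.0269). Its other probe sets changed by -0.32 and -0.71, and the mean of the 3 was past the threshold (adjusted p = 0.0107, limma). The probe set with -0.71 was the dimmest, with means of 7.27 untreated and 6.56 after tamoxifen, against array medians of 7.19 to 7.26. Lsm3 and Lsm4 had -0.18 ± 0.07 each and Lsm6 -0.19 ± 0.07, with limma adjusted p-values of 0.142, 0.171 and 0.148. Lsm4 was the member whose groups overlapped, its tamoxifen replicate 1 and untreated replicate 3 both reading 12.04. The other probe sets of Lsm6 changed by -0.26 and -0.24. Whether any of these probe sets reads a near-identical copy of the gene elsewhere in the genome was not tested.

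The calls in the ring were close to the threshold. Lsm2 and Lsm7 were called in only 1 of the 6 fits without 1 array, the one without tamoxifen replicate 1, and the limma adjusted p ran from 0.0328 to 0.164 for Lsm2 and from 0.0158 to 0.167 for Lsm7. After cyclic loess normalisation neither passed (0.0592 and 0.0639), and over all probe sets neither passed (0.105 and 0.121). The direction was the same for all 7 members in the reported fit and in each of these alternatives, and the median without 1 array ran from -0.27 to -0.21. With the replicate block 4 members of the ring were lower, against 9.54% of all genes; with 1 array left out, 4 to 7 members were lower at an unadjusted p under 0.05.

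**Figure D3:**
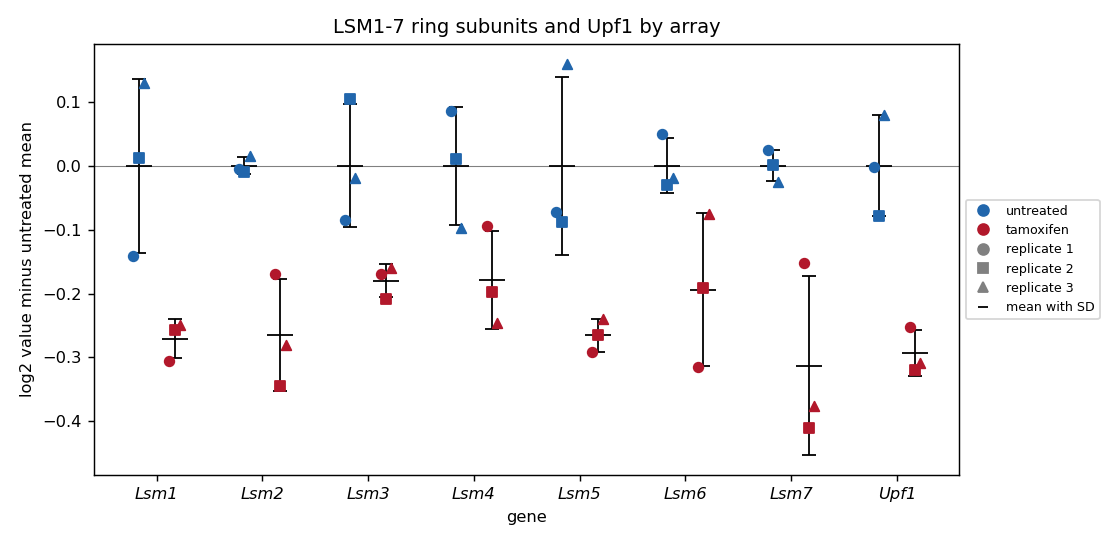
Log2 value minus the untreated mean for the 7 members of the LSM1-7 ring and for Upf1, with 1 point per array, the symbol giving the replicate number, and bars giving the group mean with its SD (n = 3). The tamoxifen means lie between -0.31 and -0.18 for the ring and at -0.29 for Upf1, and only Lsm4 shows overlapping groups.

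Of the 5 exonucleases that degrade the mRNA body, 0 were called by limma, against 7.78% of all genes. An unadjusted p under 0.05 was found for 0 of them, against 24.5% of all genes. The changes ran from -0.09 to 0.02. Xrn1, the cytoplasmic nuclease that follows decapping, read 10.52, 10.50 and 10.63 untreated and 10.57, 10.40 and 10.59 after tamoxifen, a change of -0.03 ± 0.07 with a 95% confidence interval from -0.20 to 0.13. Its nuclear relative Xrn2 changed by -0.00 ± 0.06, with an interval from -0.14 to 0.13. The exosome nucleases Exosc10 and Dis3 had -0.01 ± 0.07 and 0.02 ± 0.08. Dis3l2, which degrades uridylated RNAs such as the precursor of let-7 without the exosome, read 10.74, 10.65 and 10.71 untreated and 10.69, 10.55 and 10.58 after tamoxifen. Its change was -0.09 ± 0.06 (adjusted p = 0.426, limma), and the groups overlapped.

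Pabpc1, the main cytoplasmic poly(A)-binding protein gene, read 13.65, 13.67 and 13.60 untreated and 13.65, 13.55 and 13.54 after tamoxifen. The groups overlapped, and the change was -0.06 ± 0.06 (adjusted p = 0.592, limma). Its values were the highest among the members.

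Of the 6 genes for proteins that bring the machinery to an mRNA, 0 rose, 1 fell and 5 were not called. The shares of all genes were 3.79% called higher and 3.99% called lower. With the replicate block 1 was higher and 2 lower, against 7.87% and 9.54% of all genes. Upf1, the helicase of nonsense-mediated decay, read 10.84, 10.77 and 10.93 untreated and 10.59, 10.53 and 10.54 after tamoxifen. Each tamoxifen value was under each untreated value, and Upf1 fell 1.23-fold, by 0.29 ± 0.06 (SE) on the log2 scale, with a limma adjusted p of 0.0306. It was called in 1 of the 6 fits without 1 array, again the one without tamoxifen replicate 1; leaving out untreated replicate 1 gave 0.0578, replicate 2 gave 0.0569 and replicate 3 gave 0.0805, while leaving out tamoxifen replicate 2 gave 0.12 and replicate 3 gave 0.104. It was also not called over all probe sets (0.0867).

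TOB and BTG proteins bind the CAF1 nucleases and slow cell growth. Tob2 read 6.95, 6.87 and 7.12 untreated and 7.15, 7.17 and 7.36 after tamoxifen; the groups did not overlap, by a narrow margin. Its change of 0.25 ± 0.09 was not called (adjusted p = 0.123, limma) and passed with the replicate block (0.0227), as did 7.87% of all genes with higher values. Tob1 read 10.94, 10.47 and 10.70 untreated and 10.81, 10.50 and 10.78 after tamoxifen, and Btg1 read 12.06, 11.67 and 11.82 untreated and 11.99, 11.72 and 11.86 after tamoxifen. Both were highest in replicate 1 and lowest in replicate 2 of either group, with changes of -0.01 ± 0.13 and 0.01 ± 0.11.

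The ZFP36 family binds AU-rich elements and recruits CCR4-NOT. Zfp36l2 read 11.35, 11.19 and 11.16 untreated and 11.17, 10.84 and 10.87 after tamoxifen; tamoxifen replicate 1 overlapped the untreated arrays. Its change of -0.27 ± 0.10 was not called (adjusted p = 0.129, limma) and passed with the block (0.0186) and without tamoxifen replicate 1 (0.0327). Zfp36l1 read 10.23, 10.53 and 10.33 untreated and 10.24, 10.20 and 10.10 after tamoxifen, a change of -0.19 ± 0.09 (adjusted p = 0.224, limma).

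**Figure D4:**
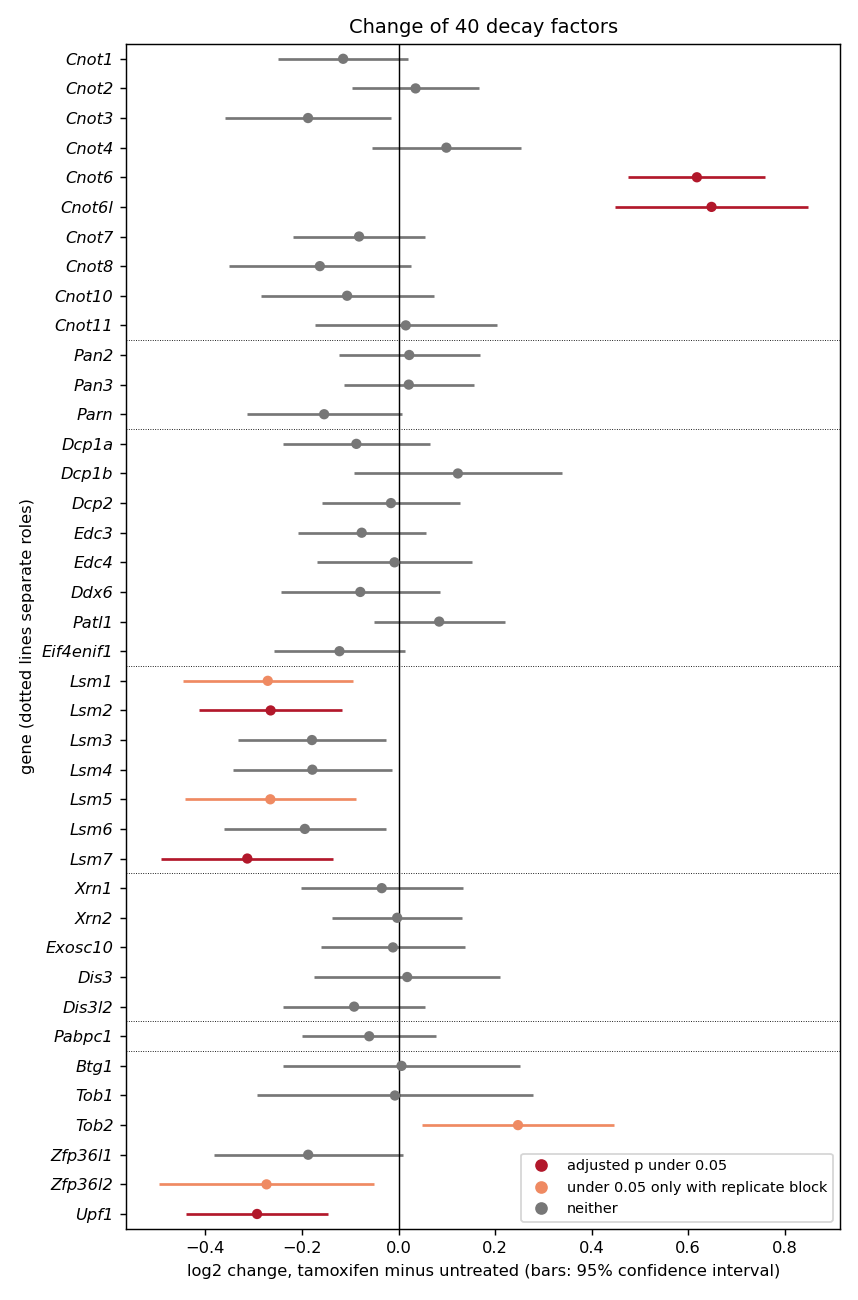
Log2 change (tamoxifen minus untreated) of the 40 measured decay genes with its 95% confidence interval from limma, grouped by role; colour gives whether the adjusted p was under 0.05 in the reported fit, only with the replicate block, or in neither. The 2 genes far to the right are Cnot6 and Cnot6l, and the intervals of all 7 Lsm genes lie below 0.

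Close relatives were then compared for the size of their change, as the within-array log2 difference between the relatives. An exact two-sided permutation test was run for the 6 pairs with measured partners. Its p cannot go below 0.1 here, so no pair could pass the threshold used for single genes, whatever its values. The test therefore cannot decide whether the relatives of a pair changed alike. The smallest unadjusted exact p was 0.3, and the exact p adjusted over the 6 pairs was 0.8 for each. The change of Cnot6 minus that of Cnot6l was -0.03 ± 0.14 (SE), and within replicate pairs it was 0.19, -0.08 and -0.20. For Dcp1a minus Dcp1b it was -0.21 ± 0.16, and within replicate pairs -0.326, -0.102 and -0.202. For Tob1 minus Tob2 it was -0.25 ± 0.17, and within replicate pairs -0.325, -0.269 and -0.171. The SE of every such difference and the permutation test ignored the replicate pairing, and no paired test was run. The differences for Cnot7 and Cnot8, Xrn1 and Xrn2, and Zfp36l1 and Zfp36l2 were 0.08 ± 0.11, -0.03 ± 0.08 and 0.09 ± 0.16. The sign was the same in 3 of 3 replicate pairs for Dcp1a and Dcp1b, Tob1 and Tob2, Cnot7 and Cnot8, and Zfp36l1 and Zfp36l2, and differed between replicate pairs for Cnot6 and Cnot6l and for Xrn1 and Xrn2.

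Further genes of the pathway, from lists written out by function, also held more falls than rises. Of 78 measured genes outside the 41 members, 1 rose, 10 fell and 67 were not called. Among all genes 3.79% were called higher and 3.99% lower. Without 1 array this count of 11 calls became 0 to 8, being 0 without tamoxifen replicate 2, 0 without tamoxifen replicate 3, 1 without untreated replicate 2, 3 without untreated replicate 3 and 6 without untreated replicate 1, so the count depends on single arrays. With the replicate block 3 were higher and 14 lower, against 7.87% and 9.54% of all genes. Over all probe sets 0 were called, against 1.37% of all genes. Before adjustment, limma p was under 0.05 for 3 genes with higher and 18 with lower values, against 11.5% and 13.1% of all genes.

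Among 16 measured genes of the exosome and its SKI and nuclear partners, 0 rose, 5 fell and 11 were not called. That is 31.2% called, against 7.78% of all genes. Exosc2, an RNA-binding cap subunit of the exosome, read 10.64, 10.77 and 10.62 untreated and 10.33, 10.38 and 10.27 after tamoxifen. Its log2 value fell by 0.35 ± 0.07 (adjusted p = 0.0187, limma; called in 3 of 6 fits without 1 array). Rbm7, of the nuclear exosome targeting complex, fell by 0.28 ± 0.07 (adjusted p = 0.0367, limma; called in 2 of 6). The nuclease members Exosc10 and Dis3 described above were not among the falling genes.

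Of 9 measured nonsense-mediated decay genes other than Upf1, 0 were called by limma, against 7.78% of all genes. At an unadjusted p under 0.05, 13.1% of all genes were lower, and 1 of these 9. The 1 gene was Upf2, the partner that activates UPF1, with a change of -0.27 ± 0.07 (limma adjusted p = 0.0573, or 0.0141 with the replicate block). With the block 9.54% of all genes were called lower.

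Among 27 further deadenylation, cap and tail factors, 0 rose, 4 fell and 23 were not called. Calls made up 14.8% of this list and 7.78% of all genes. Nudt16, a nuclear decapping enzyme, read 7.90, 7.83 and 7.75 untreated and 7.479, 7.195 and 7.320 after tamoxifen, and its log2 value fell by 0.49 ± 0.08 (adjusted p = 0.0131, limma; called in 3 of 6 fits without 1 array). Pde12, a poly(A) nuclease of mitochondria, fell by 0.27 ± 0.06 (adjusted p = 0.0366, limma; called in 0 of 6).

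Of 26 RNA-binding recruiters and translational repressors, 1 rose, 1 fell and 24 were not called. The share called, 7.69%, was close to the 7.78% of all genes. Rc3h2 (Roquin-2), which recruits CCR4-NOT to stem-loops, read 10.06, 10.25 and 10.34 untreated and 10.55, 10.69 and 10.87 after tamoxifen. It rose 1.40-fold, by 0.49 ± 0.10 on the log2 scale (adjusted p = 0.0236, limma; called in 2 of 6 fits without 1 array). Zc3h12a (Regnase-1), an endonuclease that cuts stem-loops of some of the same kind, fell by 0.30 ± 0.06 (adjusted p = 0.0232, limma; called in 2 of 6). In the Argonaute and GW182 list, whose proteins contact CCR4-NOT, 3 of 7 genes rose and 0 fell, against 3.79% of all genes called higher. Ago1 had 0.93 ± 0.08 (adjusted p = 0.00129, limma), and the GW182 genes Tnrc6a and Tnrc6b had 0.64 ± 0.06 (0.0017) and 0.51 ± 0.06 (0.00499).

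**Figure D5:**
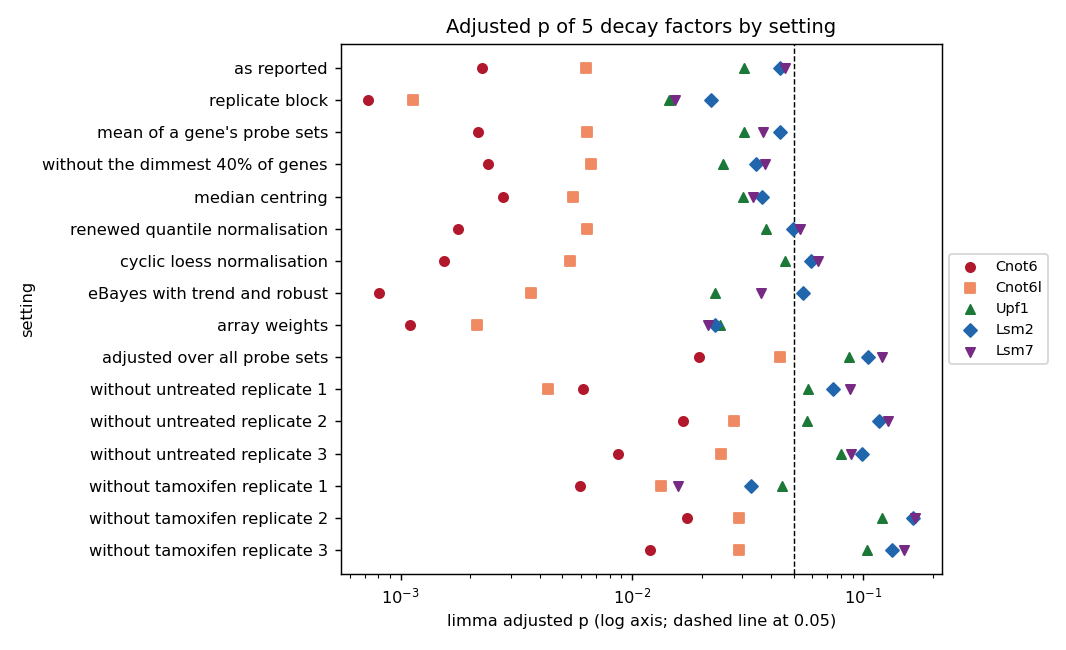
Limma adjusted p (log axis) of the 5 called decay members under the reported fit and 15 alternative settings, with a dashed line at 0.05. The points of Cnot6 and Cnot6l stay left of the line throughout, at most 0.0195 and 0.0437, while those of Upf1, Lsm2 and Lsm7 cross it in several settings.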

How the data were processed

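RNA of 6 samples was hybridised to Affymetrix arrays. Per the submitters' processing notes, the authors used Expression Console 1.2 with RMA, which subtracts background, equalises the arrays' distributions and summarises probe sets, and so would hide a shift common to most genes. The deposited log2 intensity values span 3.18 to 14.6, from which their scale was inferred. The genome build of the array annotation is not given in the sources used here. Of 35556 probe sets 21789 had exactly 1 symbol, giving 19938 genes. Columns of other samples numbered 0.

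Comparisons used limma 3.58.1 under R 4.3.3 (two-sided moderated test, no filter), adjusted over all genes by Benjamini-Hochberg. SE and 95% intervals of single genes are limma's. The SE of a difference between genes was taken from the plain variances within the groups, without limma's moderation. Paralog differences used exact permutation tests in scipy 1.17.1. The code was tested on simulated data. Members and lists were chosen with earlier results of these data known. By rule, values per array are given for Dicer1, for members called with or without the block or changed by over 0.4 (log2), and for the smallest p of each role; from other lists up to 2 called genes per direction, or the smallest p, are named. Further per-array values and genes were chosen after their values were seen. Between the groups, deviations of same-numbered arrays correlated at 0.356, 0.345 and 0.389 across genes, and those of other-numbered arrays at most at -0.115. Replicate numbers therefore count as pairing here, and a blocked fit was added. Calls given without mention of the block come from the fit that ignores this pairing. Other alternatives averaged a gene's probe sets, dropped the dimmest 40% of genes, rescaled the arrays in 3 ways or weighted arrays. Further ones let the prior variance follow the mean with robust shrinkage, or fitted and adjusted over all probe sets. The rest required an adjusted p under 0.01 or left out each array. Precision is limited by the number of arrays.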

Additional observations from a re-analysis of the deposited data

How the results depend on the processing

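Against 1552 genes called, the count was 3472 with the replicate block, 2511 with array weights, 273 over all probe sets, 276 at an adjusted p under 0.01, and 355 to 1580 without 1 array. Against 5 members, it was 9 with the block, 3 after cyclic loess, 2 over all probe sets, 2 at 0.01, and 2 to 6 without 1 array; members called lower (3) became 6, 1, 0, 0, and 0 to 4. In the other decay lists 11 calls became 17 with the block, 7 after renewed quantile normalisation, 6 after cyclic loess, 0 over all probe sets, 0 at 0.01, and 0 to 8 without 1 array. The members' median of -0.0777 became -0.0512 and -0.0427 after renewed quantile and cyclic loess normalisation. The block kept all 5 called members and added 4 (Lsm1, Lsm5, Tob2 and Zfp36l2). Of 640 member values over all alternatives, 571 kept direction and side, 25 lost the call, 8 gained it and 36 changed sign. The 36 belonged to 11 members that were not called, the largest with a change of 0.03. Several alternatives leave the log2 change as reported by construction, so the sign could not differ there. These were the block, dropping dim genes, robust shrinkage, all probe sets and the 0.01 threshold. Averaging probe sets likewise cannot move a member with a single probe set. After renewed quantile and cyclic loess normalisation Dcp2 had 0.0191 and 0.0307, Edc4 0.02 and 0.0348, Xrn2 0.027 and 0.0307, Exosc10 0.0103 and 0.0181, and Tob1 0.023 and 0.0353. Xrn1 had 0.0093 after loess, Tob1 0.0639 with array weights and Btg1 -0.000567 after median centring. Without 1 array the log2 changes ran from -0.0592 to 0.0855 for Cnot11, from -0.0191 to 0.0466 for Pan2, from -0.0059 to 0.0398 for Pan3, from -0.0483 to 0.0256 for Dcp2, from -0.0434 to 0.0497 for Edc4, from -0.0699 to 0.0249 for Xrn1, from -0.0302 to 0.0131 for Xrn2, from -0.0593 to 0.0173 for Exosc10, from -0.049 to 0.0818 for Dis3, from -0.0842 to 0.11 for Btg1 and from -0.124 to 0.111 for Tob1. The planned comparison of Pabpc1 with Pabpc4 was not run, as Pabpc4 has no probe set of its own. Within replicate pairs, paralog differences farther than 1 SD from the reported value were 0.19 (Cnot6 and Cnot6l, pair 1), 0.18 (Cnot7 and Cnot8, pair 3), -0.33 (Dcp1a and Dcp1b, pair 1), -0.10 (Xrn1 and Xrn2, pair 2), -0.17 (Tob1 and Tob2, pair 3) and 0.20 (Zfp36l1 and Zfp36l2, pair 1). The cause of these shifts was not tested.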

Other observations

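The Sm ring, which resembles the LSM rings in build and serves spliceosomal RNAs, was looked at after the values of the LSM ring had been seen. Of 7 genes 6 were measured, and all 6 had a change below 0, as did 46.8% of all genes. Their median was -0.12 on the log2 scale, against -0.26 for the LSM1-7 ring. Snrpd1 fell by 0.28 ± 0.07 (adjusted p = 0.041, limma; called in 1 of 6 fits without 1 array), and 5 were not called, Snrpd3 with -0.22 ± 0.06 and Snrpb with -0.03 ± 0.06. Lsm8, the subunit that replaces LSM1 in the nuclear ring, read 11.37, 11.20 and 11.21 untreated and 11.12, 11.00 and 10.99 after tamoxifen, a change of -0.22 ± 0.07 (adjusted p = 0.1, or 0.0313 with the replicate block).

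Outside the members, 3 relatives of genes described above had log2 changes of 0.40 or more in size. Zfp36, the founding member of the family of Zfp36l1 and Zfp36l2, had -0.44 ± 0.14 (adjusted p = 0.0916, limma), which passed with the replicate block (0.0031). Btg2, a relative of Btg1, read 9.84, 9.52 and 9.60 untreated and 9.84, 10.36 and 10.23 after tamoxifen. Its tamoxifen replicate 1 lay at the level of untreated replicate 1, and the change of 0.49 ± 0.14 was not called (adjusted p = 0.0632, limma) and passed with the block (0.0435). Noct, a rhythmically expressed relative of the CCR4 nucleases, fell by 0.40 ± 0.10 (adjusted p = 0.0444, limma; called in 1 of 6 fits without 1 array). These 3 were chosen after their values were seen.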
